A study of Zea mays with 9 samples.

Results

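Non-coding RNA genes of the maize nuclear genome were examined in primary root apices of B73 seedlings under 3 nitrogen treatments. These are the genes with an Ensembl ENSRNA identifier that lie on chromosomes 1 to 10 and not on the plastid or mitochondrial genome. Of 1405 such genes, 297 had an expression value of at least 5 RPKM (reads per kilobase of gene, scaled to the size of the library) in at least 1 condition, and these 297 genes are described here. They come from a table of 45260 genes, of which 16345 reached the same minimum. The genes were chosen by their RPKM in the 3 conditions, so their levels and ratios are a description with no test.

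Seedlings of the B73 inbred line were germinated for 3 days, kept for 24 h in a solution without nitrogen, and then moved for 24 h to 1 of 3 solutions. The −N group stayed without nitrogen, the +NO3- group received 1 mM nitrate, and the +NO3- + cPTIO group received 1 mM nitrate together with 1 mM cPTIO, a scavenger of nitric oxide (NO). Every group was thus starved of nitrogen before treatment, and each library came from the pooled apices of several seedlings. The labels list 3 libraries per condition and give the RNA as polyA RNA, while the methods of the study state that 2 libraries were kept for +NO3- + cPTIO and that the −N and +NO3- data were taken from earlier work. The table holds 1 pooled RPKM per gene and condition, so the spread between libraries and the depth behind a value could not be seen. Whether the cPTIO libraries were sequenced together with the others is not given in the sources used here, and the part of this in the comparisons with cPTIO was not tested. Of genes named for the root cap, the root cap-specific protein gene Zm00001d045420 had an RPKM of 44.7 in −N, 6.04 in +NO3- and 23.0 in +NO3- + cPTIO, and the bearskin 2 gene Zm00001d003583 had 1.77, 0.207 and 1.19, while no wider marker list could be checked. Fewer cells of a type and less RNA per cell cannot be told apart in such pooled tissue.

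Most of these genes belong to the machinery that makes and modifies other RNAs. Small nucleolar RNAs (snoRNAs) pair with ribosomal RNA (rRNA) and guide its methylation or pseudouridylation in the nucleolus, U3 RNA is needed to cut the rRNA precursor, and RNase MRP RNA is part of an enzyme that also cuts it. Spliceosomal small nuclear RNAs (snRNAs) remove introns from messenger precursors, the RNA of the signal recognition particle (SRP) helps to bring secreted proteins to the endoplasmic reticulum, and hairpin precursors release microRNAs. In plants many snoRNA genes are transcribed as clusters from a shared promoter, and others lie in introns of protein-coding genes.

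The 297 genes comprised 199 of 442 annotated snoRNA genes from 68 families, 36 of 178 spliceosomal snRNA genes, 30 of 207 rRNA genes, 13 of 157 microRNA precursors, 9 of 23 U3 genes, 7 of 66 SRP RNA genes and 1 of 309 transfer RNA genes, with the single genes of RNase MRP RNA and of enod40 beside them. Family names were available for all of them. Of the other 1108 nuclear ENSRNA genes, 975 were listed at 0 in every condition and 133 had values above 0 but under 5. Just inside the minimum stood snoR83 (ENSRNA049460114) with a highest RPKM of 5.08, snoR135 (ENSRNA049476748) with 5.18 and snoZ118 (ENSRNA049479127) with 5.21. Just outside stood mir-160 (ENSRNA049461656) with 4.99, snoZ194 (ENSRNA049471008) with 4.95 and U5 (ENSRNA049477509) with 4.91. Chromosome 5 held 78 of the 297 genes and chromosome 6 held 46, of which 19 were rRNA genes.

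Levels were highest with nitrate alone for 160 genes, with nitrate and cPTIO for 89 and without nitrogen for 48. The peak condition was not counted over all genes, so nothing is read from these numbers. In +NO3- against −N, 206 of the 297 genes were higher and 71 lower. Of 16008 other nuclear genes at the minimum, 8424 were higher and 7581 lower. With cPTIO against nitrate alone, 103 of the 297 were higher and 181 lower, and of the others 7463 and 8542. More than a 2-fold higher RPKM in +NO3- than in −N was seen for 82 genes, against 3.13% of all genes that reached the minimum, and a more than 2-fold lower one for 36, against 1.74%. Between +NO3- + cPTIO and +NO3-, 59 genes were past 2-fold higher (5.72% of all genes) and 92 past 2-fold lower (9.56%). Between +NO3- + cPTIO and −N the counts were 76 higher (6.28%) and 54 lower (7.18%). A value of 0 in 1 of the conditions was counted as past the limit. Since the same values chose the genes, nothing is read from the distance to the share of all genes.

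Where both values were above 0, the median log2 ratio of the genes was 0.52 for +NO3- against −N, −0.50 for +NO3- + cPTIO against +NO3- and 0.01 for +NO3- + cPTIO against −N. Over the 16008 other nuclear genes the same medians were 0.02, −0.04 and −0.03. Among genes of other kinds, short ones had medians away from 0. For the 223 other nuclear genes of at most 400 bases that stood alone at their locus, the medians were 0.57, −1.29 and −0.75. Other nuclear genes over 5000 bases and alone at their locus had medians of −0.03, 0.09 and 0.07. Within the non-coding RNA genes alone at their locus the median for +NO3- + cPTIO against +NO3- went the other way with length, from 0.10 in the 37 genes of up to 90 bases to −0.95 in the 14 genes over 400 bases, and that for +NO3- against −N was lowest in the shortest, 0.21. All 14 genes over 400 bases were rRNA genes, so length and RNA class were not told apart there. The part of length in these ratios was not tested.

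Ribosomal RNA took most of the signal. The 30 rRNA genes held 84.2% of the summed RPKM of the 297 genes in −N, 85.2% in +NO3- and 81.1% in +NO3- + cPTIO. This was so although the libraries are labelled as polyA RNA. How much RNA of each class such libraries captured in each condition was not measured. Levels and ratios of all classes here may therefore differ from those in the cells. Together the 297 genes made up 7.63% of the summed RPKM of the whole table in −N, 10.6% in +NO3- and 8.32% in +NO3- + cPTIO. The highest gene of the whole table in each condition was the large subunit (LSU) rRNA gene ENSRNA049478226 on chromosome 6 (B73 RefGen_v4, 13507487 to 13507764), with an RPKM of 19358 in −N, 27056 in +NO3- and 15364 in +NO3- + cPTIO, the order in which values are given from here on. A second LSU rRNA gene, ENSRNA049478207 (chromosome 6, 13473592 to 13474021), had 14432, 22596 and 11886. The third, ENSRNA049478221 (chromosome 6, 12824696 to 12824911), had 9282, 16970 and 13957 and was the exception among LSU genes in staying above its −N value with cPTIO. Outside chromosome 6 the highest was ENSRNA049455955 (chromosome 5, 145474713 to 145474872) with 4630, 6753 and 3381, followed by ENSRNA049478156 back on chromosome 6 (14464912 to 14466400) with 2446, 3517 and 2056.

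All 15 LSU rRNA genes above 0 in every condition were higher in +NO3- than in −N, with log2 ratios from 0.34 to 0.87, and all 15 were lower in +NO3- + cPTIO than in +NO3-, with log2 ratios from −1.62 to −0.28. Of these 15, 14 were also lower in +NO3- + cPTIO than in −N. Their levels ran from 17.6 to 27056 in +NO3-, so genes that differed by 3 orders of magnitude shared the direction. These entries belong to 1 family, and the software divided reads that match several places between such entries, so they may not be 15 separate measurements. How alike their sequences are was not examined. The remaining LSU gene, ENSRNA049478180 (chromosome 6, 12823641 to 12824642), had an RPKM of 3591 in −N and 3114 in +NO3- + cPTIO but was listed at 0 in +NO3-. It lies directly before ENSRNA049478221, which had the largest log2 ratio of +NO3- to −N among the LSU genes, 0.87. The 7 rRNA genes with at least 1000 RPKM in a condition summed to a ratio of 1.44 for +NO3- against −N with the gene listed at 0 and of 1.54 without it.

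The smaller rRNAs varied more. The 9 small subunit (SSU) rRNA genes had a summed RPKM of 106 in −N, 129 in +NO3- and 65.1 in +NO3- + cPTIO, and 7 of the 9 were lower with cPTIO than with nitrate alone. The 5 genes for 5.8S rRNA summed to 162, 365 and 259. Within that family ENSRNA049478252 (chromosome 6, 14282732 to 14282887) had 70.7, 298 and 210, whereas ENSRNA049478262 (chromosome 6, 14389305 to 14389460) had 67.3 in −N, 11.2 in +NO3- and 7.79 in +NO3- + cPTIO. These copies of 1 RNA stood at a similar level in −N and differed in opposite directions from there. In total, 18 of the 30 rRNA genes lie between 12757485 and 14508688 of chromosome 6, where 60 rRNA genes are annotated.

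U3 RNA, which is needed for the first cuts of the rRNA precursor, was highest in +NO3- at each of its 9 genes. The 9 genes had a median RPKM of 11.5 in −N, 21.9 in +NO3- and 18.5 in +NO3- + cPTIO. Summed over all 23 annotated U3 genes the RPKM was 171, 315 and 185, a ratio of 1.84 for +NO3- against −N and of 1.08 for +NO3- + cPTIO against −N. The highest gene, ENSRNA049474917 (chromosome 10, 143162797 to 143163018), had 33.6, 75.3 and 42.0. The next, ENSRNA049472638 (chromosome 2, 9272655 to 9272875), had 36.3, 62.1 and 39.8. Log2 ratios of the 9 genes ran from 0.33 to 1.47 for +NO3- against −N and from −1.78 to −0.04 for +NO3- + cPTIO against +NO3-, and 4 were past 2-fold in the first and 2 in the second. No U3 gene was past 2-fold between +NO3- + cPTIO and −N, where 6 were higher and 3 lower. None of the 9 was listed at 0, and 8 stood alone at their locus, with lengths from 216 to 247 bases. The least even was ENSRNA049474911 (chromosome 10, 144721354 to 144721573) with 6.28, 14.9 and 4.32.

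SRP RNA, the scaffold of the particle that directs secretion, had the same order. All 7 genes were highest in +NO3-, with a median RPKM of 14.6 in −N, 17.3 in +NO3- and 12.5 in +NO3- + cPTIO. The highest was ENSRNA049477080 (chromosome 9, 20238190 to 20238493) with 24.9, 42.3 and 24.8. Next came ENSRNA049477077 (chromosome 9, 20383583 to 20383890) with 19.7, 26.7 and 19.4 and ENSRNA049477741 (chromosome 7, 158600944 to 158601252) with 19.3, 28.6 and 17.5. In these 3 genes the value with cPTIO lay within 10% of the −N value. Over the 66 annotated SRP genes the summed RPKM was 111.3, 160.7 and 101.6. No SRP gene was past 2-fold between +NO3- and −N or between +NO3- + cPTIO and −N, and 1 was past it, lower, with cPTIO against nitrate alone. Of the 7 genes, 4 lie between 20238190 and 20383890 of chromosome 9.

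Spliceosomal snRNAs were also higher with nitrate than without nitrogen, but their summed level with cPTIO was close to that with nitrate alone. Over the 178 annotated genes the summed RPKM was 508 in −N, 814 in +NO3- and 769 in +NO3- + cPTIO, so the ratio to −N was 1.60 with nitrate and 1.51 with nitrate and cPTIO, and the ratio between the nitrate conditions was 0.945. The median log2 ratio of +NO3- + cPTIO to +NO3- was 0.04, beside −0.72 for U3, −0.71 for SRP RNA and −0.96 for rRNA. That median lay between genes that differed both ways, since 8 of the 36 genes were past 2-fold higher and 10 past 2-fold lower with cPTIO than with nitrate alone. Other nuclear genes of the length of U1, over 140 and up to 200 bases, had a median of −1.28, over 9 genes. Whether the classes differ was not tested, because 1 value per condition allows no test.

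U1 snRNA, which recognises the start of the intron, gave 15 of the 36 genes and most of the level. Of these 15, 14 were higher in +NO3- than in −N and 13 were higher in +NO3- + cPTIO than in −N, whereas 8 were higher and 7 lower in +NO3- + cPTIO than in +NO3-. Their median RPKM was 17.5, 34.8 and 25.8, and their sum 371, 579 and 544. The highest gene, ENSRNA049478426 (chromosome 9, 128658845 to 128659007), had 113, 121 and 142 and was the most even. ENSRNA049463865 (chromosome 5, 5460046 to 5460206) had 28.5, 55.7 and 72.0. In contrast, ENSRNA049463846 (chromosome 5, 3203379 to 3203539) had 50.4, 72.5 and 43.8. After these by mean RPKM came ENSRNA049455425 (chromosome 6, 170254872 to 170255031) with 26.5, 56.8 and 60.0 and ENSRNA049477136 (chromosome 5, 213693607 to 213693767) with 32.7, 48.3 and 40.5. No U1 gene was listed at 0, and a single one, ENSRNA049463790 with 1.997, 1.38 and 7.09, was lower in +NO3- than in −N.

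The other 21 snRNA genes summed to 83.5, 184 and 187, and 10 of them were listed at 0 in at least 1 condition. Their highest genes were 2 copies of U6, the RNA at the catalytic centre of the spliceosome. ENSRNA049476878 (chromosome 3, 176206058 to 176206147) had 13.2, 42.9 and 20.3, and ENSRNA049470306 (chromosome 1, 292138148 to 292138250) was listed at 0 in −N with 14.1 in +NO3- and 43.4 in +NO3- + cPTIO. U12, which belongs to the minor spliceosome, had 3.76, 11.4 and 1.86 (ENSRNA049454571, chromosome 4, 131659620 to 131659777). U11, its partner in the minor spliceosome, was listed at 0 in −N and had 4.47 and 12.6 in the nitrate conditions (ENSRNA049453841). These partners therefore had opposite orders with cPTIO, at levels close to the minimum. Among the 9 U5 genes, 7 were listed at 0 somewhere.

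**Figure D1:**
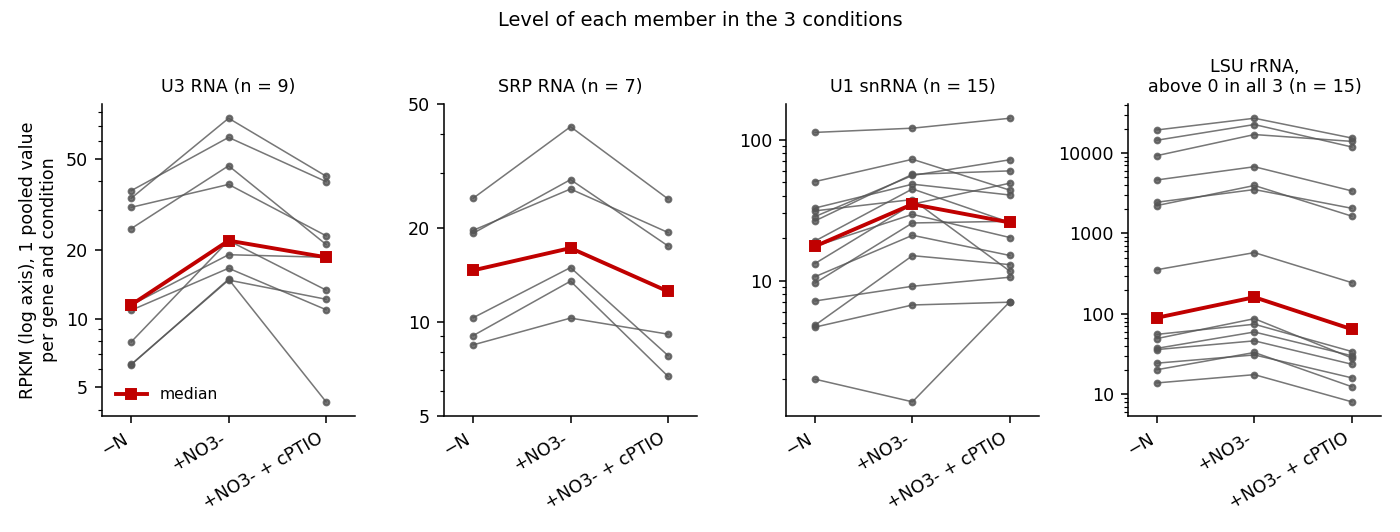
RPKM on a log axis of each U3, SRP RNA, U1 and LSU rRNA gene in −N, +NO3- and +NO3- + cPTIO, with 1 grey line per gene and the median in red. All 9 U3, all 7 SRP and all 15 LSU lines peak at +NO3-, while 8 of the 15 U1 lines are higher at +NO3- + cPTIO than at +NO3-.

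enod40 was highest with cPTIO. This short RNA, first known from legume nodules, is found in many plants, and the gene ENSRNA049469775 lies on chromosome 2 (31647279 to 31647471) with no other gene at the locus. Its RPKM was 373 in −N, 580 in +NO3- and 1882 in +NO3- + cPTIO, which moved it from rank 322 of the table to rank 179 and then to rank 19. The log2 ratio was 0.64 for +NO3- against −N, 1.70 for +NO3- + cPTIO against +NO3- and 2.34 for +NO3- + cPTIO against −N. The order of its 3 values was therefore not that of U3 and SRP RNA, whose genes all peaked in +NO3-. RNase MRP RNA (ENSRNA049474492, chromosome 3, 146709465 to 146709712) stood near the minimum, with 4.03, 5.33 and 3.51.

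snoRNAs formed the largest class. Their summed RPKM over the 442 annotated genes was 9452 in −N, 12327 in +NO3- and 9200 in +NO3- + cPTIO, a ratio of 1.30 for +NO3- against −N and of 0.746 for +NO3- + cPTIO against +NO3-. The median log2 ratios of the 199 genes were 0.41, −0.42 and 0.08 in the 3 comparisons, and single genes ran from −5.47 to 3.74 in the first and from −2.66 to 5.54 in the second. Of the 199 genes, 97 were highest in +NO3-, 65 in +NO3- + cPTIO and 37 in −N, with no such count over all genes to set beside it. The class thus had the direction of U3 and rRNA in sum, with a wider range of ratios. Over the snoRNA genes alone at their locus the last median was −0.07.

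**Figure D2:**
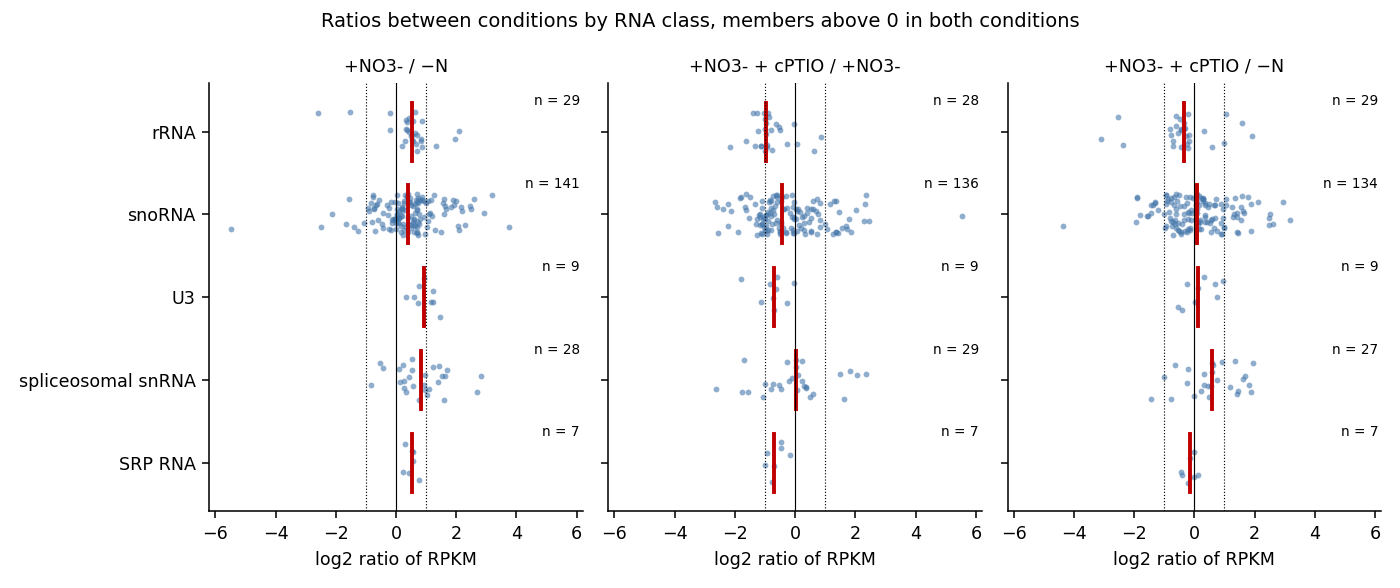
Log2 ratio of RPKM for each gene above 0 in both conditions, by RNA class, in the 3 comparisons. Red bars are medians, and dotted lines mark 2-fold. With cPTIO against nitrate alone the medians of rRNA, U3 and SRP RNA lie at −0.96, −0.72 and −0.71, and that of spliceosomal snRNA at 0.04.

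The highest snoRNA was a SNORD14 gene, ENSRNA049465410 (chromosome 4, 154380191 to 154380310), with 544, 632 and 281. SNORD14 is the relative of U14, which takes part in the early cuts of the rRNA precursor as well as in methylation. Next was snoU83 (ENSRNA049475237, chromosome 8, 128420399 to 128420484), whose 348, 376 and 392 made it the most even of the 5 highest. snoR77Y (ENSRNA049465281, chromosome 4, 154379350 to 154379433) had 285, 548 and 271. A SNORD24 gene on chromosome 7 (ENSRNA049476322, 8518187 to 8518274) had 178, 540 and 277. Its copy on chromosome 5 (ENSRNA049463630, locus 7138252 to 7143092) had 311, 321 and 225. That copy shares the locus with Zm00001d013252, a gene with 292, 346 and 188.

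A sum over each family depends less on how reads were divided between its copies where these are alike in length. RPKM is scaled by the length of each copy, so in families of unlike lengths the division can still change the sum. The LSU rRNA genes, for example, ran from 136 to 1489 bases. Reads shared with a longer gene at the locus also remain open to division. The 84 families other than microRNA precursors had a higher sum in +NO3- than in −N in 65 cases, in +NO3- + cPTIO than in +NO3- in 28 cases and in +NO3- + cPTIO than in −N in 46 cases. Their median log2 ratios of sums were 0.53, −0.32 and 0.11. The largest snoRNA family by level, SNORD14 with 19 annotated genes, summed to 2155, 2715 and 1507, and SNORD24 with 3 genes to 504, 862 and 508. In contrast, snoZ103 with 20 genes summed to 630, 676 and 808, and snoZ162 with 5 genes to 150, 207 and 341, so that these were highest with cPTIO. SNOR75 (322, 233 and 245) and snoZ223 (360, 167 and 232) were highest in −N.

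The snoRNA genes at the ends of the range often shared their locus. SNORD34 ENSRNA049467581 (chromosome 2, locus 223879706 to 223884083) had 89.9 in −N, 2.03 in +NO3- and 94.7 in +NO3- + cPTIO, the largest ratio of any snoRNA in either comparison. It shares this locus with another SNORD34 gene and with Zm00001d007179, whose own RPKM was 74.4, 64.8 and 57.2. snoR35 ENSRNA049456187 (chromosome 4, locus 179501449 to 179530563), at the locus of Zm00001d052098, had 76.2, 23.9 and 122, beside 29.1, 27.7 and 35.8 for that gene. Towards nitrate, snoZ266 ENSRNA049476890 (chromosome 3, locus 179902053 to 179907809) had 9.94, 90.2 and 42.8, beside 9.48, 13.2 and 12.9 for Zm00001d042794. In these 3 cases the longer gene was the more even one.

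A pair of snoZ103 genes at 1 locus on chromosome 5 (61285308 to 61288275), shared with Zm00001d014749, were each at an end of the range. ENSRNA049456789 had 4.59, 61.4 and 35.4 and ENSRNA049456746 had 18.1, 11.2 and 55.6, whereas their sum was 22.71, 72.59 and 90.96. Lower in +NO3- than in −N were also snoR86 ENSRNA049475707 (chromosome 8, locus 67649933 to 67652077) with 10.1, 1.78 and 5.86 and snoZ112 ENSRNA049471974 (chromosome 1, locus 12768360 to 12771997) with 11.3, 2.63 and 0.554. The genes around these had 0.741, 0.816 and 0.806 (Zm00001d008042) and 7.25, 8.19 and 6.03 (Zm00001d027758). Among genes alone at their locus the widest ratios were smaller. Examples are snoZ101 ENSRNA049456769 (chromosome 5, 61281948 to 61282047) with 24.4, 90.7 and 14.3 and snoR100 ENSRNA049477188 (chromosome 6, 141379197 to 141379303) with 19.7, 6.72 and 36.4. Over the 94 genes at a shared locus, 48 were within 2-fold between +NO3- and −N, and over the 203 alone at their locus 131 were.

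Of these 94 genes, 83 shared the locus with a gene of the protein-coding annotation, at 55 loci, and 79 of the 83 were snoRNAs. At the 52 loci with 1 such gene, the longer gene was past 2-fold at 1 locus for +NO3- against −N, while the summed non-coding RNAs were past it at 19. For +NO3- + cPTIO against +NO3- the counts were 7 and 26, and for +NO3- + cPTIO against −N they were 2 and 27. The counts are not alike, since no minimum was set for the longer genes, of which 49 of 59 reached an RPKM of 5. The longer gene past 2-fold for +NO3- against −N was Zm00001d048447, at 0.00628 in −N and 0 in +NO3-. With cPTIO against −N the 2 were Zm00001d048447 and Zm00001d014365, the latter at 1.45 in −N, and both were listed at 0 with cPTIO. The longer genes had median log2 ratios of 0.11, −0.50 and −0.40 in the 3 comparisons. The most expressed was Zm00001d041550 on chromosome 3, with an RPKM of 1436, 1506 and 904. Beside it, the 2 snoRNAs at its locus that reached the minimum summed to 38.8, 41.7 and 38.4. Whether the counting used strand is not given in the sources used here, so reads of a snoRNA and of the gene around it may not have been told apart.

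Arrays of at least 5 genes, in which neighbours lay within 5000 bases of each other, numbered 10 and held 65 of the snoRNA genes. They lie on chromosomes 4, 5 and 6, and every ENSRNA gene annotated inside them reached the minimum. Array sums were higher in +NO3- than in −N in 7 of 10 arrays, lower in +NO3- + cPTIO than in +NO3- in 8 of 10 and higher in +NO3- + cPTIO than in −N in 4 of 10. Over all 65 genes the summed RPKM was 5303, 6981 and 4586.

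The most expressed array (chromosome 4, 154378507 to 154380310) held 8 genes in the order snoR30, snoZ107_R87, snoR31_Z110_Z27, snoR77Y, snoZ112, snoR2, SNORD14 and SNORD14. Its sum was 1722 in −N, 2364 in +NO3- and 1185 in +NO3- + cPTIO, and 7 of its 8 genes were higher in +NO3- than in −N while all 8 were lower in +NO3- + cPTIO than in either other condition. Even so, the levels of neighbours within +NO3- ran from 101 to 632. A related array (chromosome 5, 195870379 to 195871920) carries 7 genes of 6 of the same families and summed to 629, 937 and 656. All 7 of those were higher in +NO3- than in −N and 6 were lower in +NO3- + cPTIO than in +NO3-.

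Another pair of arrays has the same 5 families in the same order, snoR97, snoZ278, snoZ223, snoU36a and snoR134, and differed in level. The copy on chromosome 5 (43034050 to 43034920) summed to 186, 380 and 148, and the copy on chromosome 6 (92079635 to 92080501) to 178, 172 and 212. Within the first, snoZ278 (ENSRNA049461468) had 13.5, 75.2 and 12.4 and snoU36a (ENSRNA049461704) had 32.5, 101 and 17.0, both among the snoRNAs with the largest ratios. In the second the same 2 families had 5.45, 30.2 and 14.7 (ENSRNA049479419) and 97.6, 59.3 and 119 (ENSRNA049479409). snoZ223 was listed at 0 in −N and +NO3- on chromosome 5, with 33.1 in +NO3- + cPTIO (ENSRNA049461681), and had 48.7, 48.9 and 44.1 on chromosome 6 (ENSRNA049479381). The order of the genes was thus shared while the order of the conditions was not.

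Of the 6 remaining arrays, 4 are on chromosome 5. The array from 78513416 to 78515471, with 4 SNORD14 genes among its 8, summed to 805, 1062 and 652, and its snoR1 (ENSRNA049458758) had 0, 5.92 and 29.1. The array from 49521493 to 49523446 summed to 462, 366 and 292, where its snoZ223 (ENSRNA049461747) alone had 312, 118 and 155. The array from 61281257 to 61288275, rich in snoZ103, summed to 411, 498 and 567 and was higher with cPTIO. The lowest array, from 49269749 to 49271536, summed to 76.4, 59.6 and 35.7, and all 7 of its genes were listed at 0 in some condition. The last 2 arrays are on chromosome 4 (244808732 to 244809916), with 428, 458 and 330, and on chromosome 6 (92504748 to 92506110), with 406, 684 and 507.

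**Figure D3:**
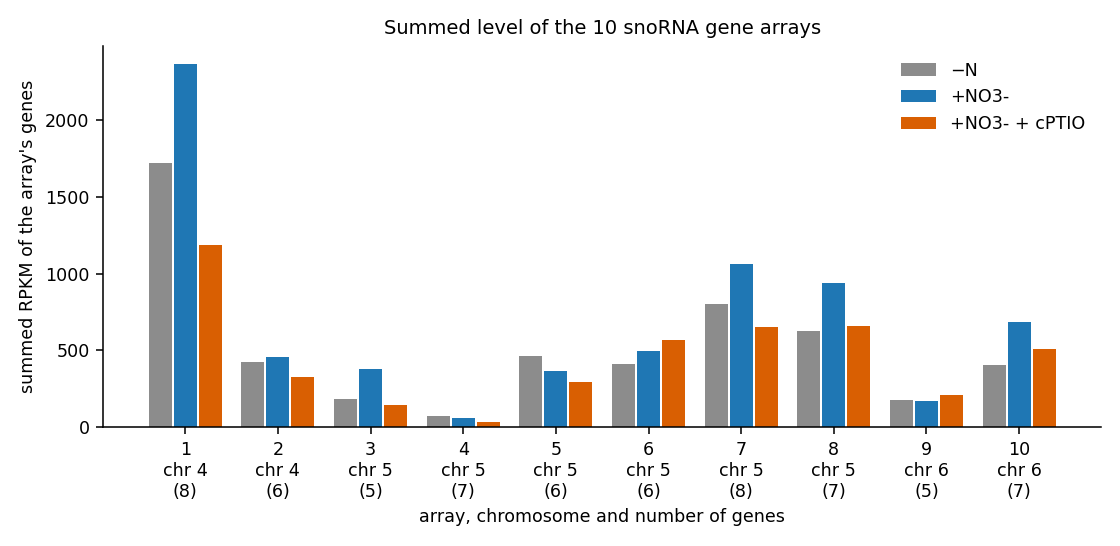
Summed RPKM of the genes of each of the 10 snoRNA arrays in −N, +NO3- and +NO3- + cPTIO, with the chromosome and the number of genes under each. Array 1 stands highest with 1722, 2364 and 1185, and arrays 6 and 9 are the ones whose +NO3- + cPTIO sum is the largest of the 3.

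A 0 was common among these genes. In −N 50 genes were listed at 0 (0.41% of all genes at the minimum), in +NO3- 43 (0.33%) and in +NO3- + cPTIO 48 (0.453%). At least 1 zero was listed for 94 of the 297 genes, against 131 or 0.801% of all 16345 genes at the minimum. Of the 94, 47 were listed at 0 in exactly 1 condition and 47 in exactly 2, and the zeros were spread over the 3 conditions.

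Zeros went with short length. The 203 genes alone at their locus, whose annotated length is known, ran from 75 to 1778 bases with a median of 119, and 139 of them were at most 150 bases long, with reads of 75 nt. Of the 37 genes of up to 90 bases 59.5% had a zero, of the 54 over 90 and up to 110 bases 35.2%, of the 35 over 110 and up to 140 bases 22.9%, and of the 43 over 140 and up to 200 bases 4.65%. None of the 20 genes over 200 and up to 400 bases had one, and 1 of the 14 longer genes did, the LSU rRNA gene described above. Those 14 were all rRNA genes, and the 20 genes over 200 and up to 400 bases included 8 U3 and 7 SRP RNA genes. Length and RNA class were therefore not told apart in these shares. The share of genes past 2-fold between +NO3- and −N was 56.8% in the shortest bin and 7.14% in the longest. Between +NO3- + cPTIO and +NO3- it did not go steadily with length, at 67.6%, 48.1%, 60.0%, 30.2%, 25.0% and 42.9% from the shortest bin to the longest.

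Zeros also went with a low level. With a highest RPKM from 5 to 10, 65.1% of 43 genes had a zero, from 10 to 20 48.1% of 81, from 20 to 50 29.3% of 75 and from 50 to 100 8.70% of 46. None of the 44 genes from 100 to 1000 had one. A value of 0 in 1 condition and of at least 30 in another was found for 15 genes, of which 9 were alone at their locus.

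**Figure D4:**
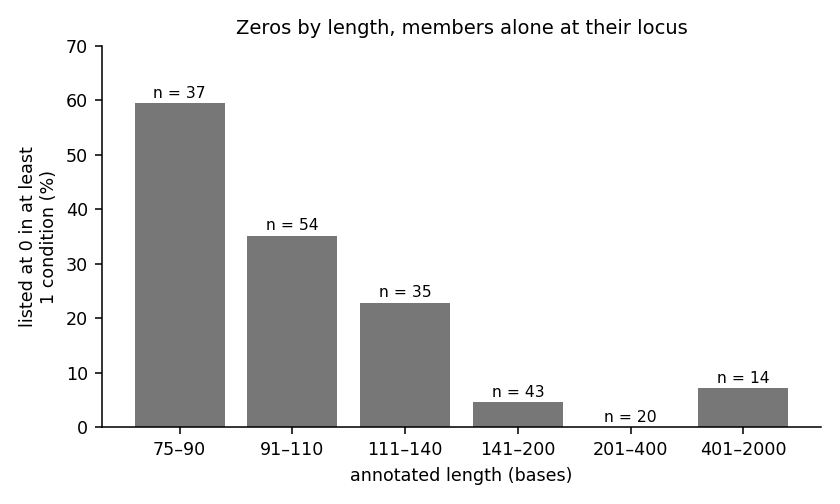
Share of genes listed at 0 in at least 1 condition by annotated length in bases, for the 203 genes alone at their locus, with the number of genes over each bar. The share goes from 59.5% in genes of up to 90 bases to 4.65% in those over 140 and up to 200 bases.

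Of these 15, the U6 gene ENSRNA049470306, the LSU rRNA gene and the snoZ223 gene of the chromosome 5 array are described above, and the others were snoRNAs as well. Listed at 0 with cPTIO alone were SNOR75 (ENSRNA049463761) with 36.4 in −N and 61.6 in +NO3-, snoZ102_R77 (ENSRNA049456692) with 47.1 and 43.0, and snoZ279_R105_R108 (ENSRNA049477299) with 16.1 and 35.4. Above 0 with cPTIO alone were snoR64 (ENSRNA049468588) with 46.3, U54 (ENSRNA049477366) with 41.1 and snoZ155 (ENSRNA049475518) with 37.96. Listed at 0 in −N alone were snoR31_Z110_Z27 (ENSRNA049458448) with 58.5 and 64.7, snoZ199 (ENSRNA049458426) with 59.6 and 48.7, snoR64 (ENSRNA049458495) with 14.1 and 48.2, and a second U54 (ENSRNA049476303) with 32.8 and 15.4, each in +NO3- and +NO3- + cPTIO. Listed at 0 in +NO3- alone were SNOR75 ENSRNA049476252, with 51.7 in −N and 13.4 in +NO3- + cPTIO, and snoZ118 ENSRNA049479219, with 8.32 and 30.3. The only transfer RNA gene, tRNA-Gln ENSRNA049445136, had 9.15 in −N and was listed at 0 in the nitrate conditions.

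Hairpins of microRNAs were listed more than once. Of the 13 precursors, 12 share their locus with an entry named zma-MIR, as do 123 of the 157 annotated ones, so that the reads of a hairpin could be divided between identifiers. In 2 of the 12, MIR396d and MIR156g, the zma-MIR entry was listed at 0 in every condition and any value stood under the ENSRNA entry. All 5 genes of the whole set with a value above 0 but under 0.1 were hairpins among the 12. For these 5 the zma-MIR entry also had values above 0. ENSRNA049463701, a MIR167 hairpin, had 0.000257 in −N, 10.1 in +NO3- and 0 in +NO3- + cPTIO, and zma-MIR167b at the same place had 7.70, 0.00889 and 7.96. Their sum was 7.70, 10.1 and 7.96. The ratio of +NO3- to −N was 39269 from the ENSRNA entry and 1.31 from the sum. The own length of each entry at a shared locus is not known. Where the lengths of 2 entries differ, the division of reads can still change their sum.

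Ratios of the 12 hairpins past 2-fold numbered 9 from the ENSRNA entry alone and 5 from the sum for +NO3- against −N. They numbered 11 and 6 for +NO3- + cPTIO against +NO3-, and 9 and 5 for +NO3- + cPTIO against −N. The highest hairpin was MIR171f, of a family that targets GRAS transcription factors. Its ENSRNA049463648 entry had 80.1, 26.1 and 0.0335, its zma-MIR171f entry 133, 74.3 and 74.7, and their sum was 213, 100 and 74.8. The sum was thus 2.13-fold lower in +NO3- than in −N, and the value with cPTIO was 0.744 of that with nitrate.

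The sums of the other hairpins differed in both directions. MIR169c, of the family that targets NF-YA transcription factors, had sums of 26.9, 53.2 and 51.6, higher with nitrate with or without cPTIO. MIR164b, whose family targets NAC transcription factors, had 17.1, 30.3 and 9.32, a value 3.26-fold lower with cPTIO than with nitrate alone, and MIR159f had 7.65, 14.5 and 14.9. MIR393a, from the family that targets auxin receptors, had 3.00 in −N and 18.9 in +NO3-, a ratio of 6.29, and was at 0 under both identifiers with cPTIO. MIR396e, of a family that targets growth-regulating factors, had 7.78, 15.8 and 8.75, and MIR396d had 13.7, 16.8 and 7.14. The MIR156f sum was 13.9, 11.7 and 6.90. MIR167e was listed at 0 in +NO3- under both identifiers, with 9.94 in −N and 12.98 with cPTIO. The locus of MIR169e and MIR169h had 7.38, 5.25 and 0, and that of MIR156g, within a longer shared locus, 0, 3.66 and 12.2.

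**Figure D5:**
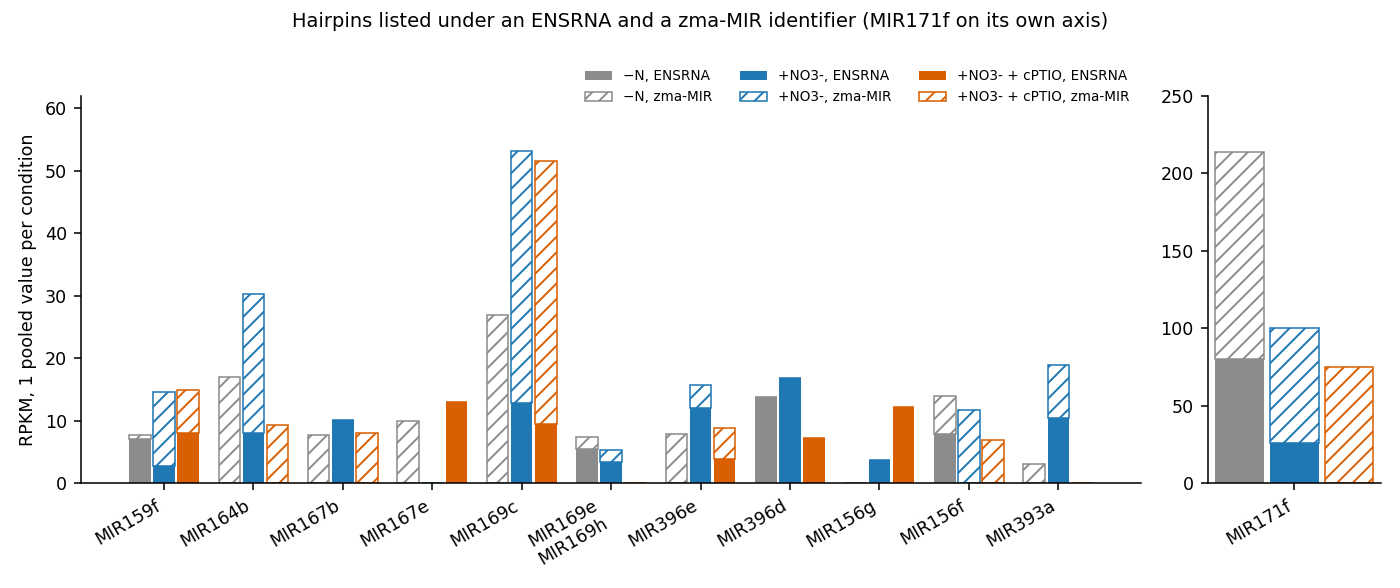
RPKM of the 12 hairpins listed under both an ENSRNA (filled) and a zma-MIR (hatched) identifier, stacked, in −N, +NO3- and +NO3- + cPTIO, with MIR171f on an axis of its own. The filled share of a hairpin changes between conditions, as for MIR167b, while its total stays between 7.70 and 10.1.

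The single hairpin with no second identifier was mir-160, of a family that targets auxin response factors. ENSRNA049466605 (chromosome 4, 241638528 to 241638619), 92 bases long and alone at its locus, had 4.201 in −N, 32.3 in +NO3- and 36.3 in +NO3- + cPTIO. The ratio to −N was 7.70 with nitrate and 8.65 with nitrate and cPTIO, and 1.12 between the nitrate conditions. Another mir-160 gene, ENSRNA049461656, which stood just under the minimum, had 4.99 in −N and was listed at 0 in both nitrate conditions. Summed over the 7 annotated mir-160 genes, the ratios to −N were 3.52 and 3.95. The −N value of ENSRNA049466605 lay under the minimum of 5 and its length in the range where zeros and wide ratios were common.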

How the data were processed

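RNA-seq of maize root apices gave 9 libraries, 3 per condition in the labels. According to the labels and the methods, the authors trimmed 75 nt reads (Trimmomatic 0.33), mapped them to B73 RefGen_v4 (TopHat2 2.0.13) and computed expression with Cuffdiff (Cufflinks 2.2.1) with quartile normalization and correction for reads with several matches. The deposited values are RPKM, 1 pooled value per gene and condition, and all 3 columns were matched to a condition by name. Zeros in such a table can be failed estimates. Family names came from the name column of the study's supplementary dataset for 1448 of 1448 ENSRNA identifiers. The authors' fold changes and p-values were not used. Listed starts count from 0, since end minus start was a whole number of codons for 116 of 138 organelle genes alone at their locus, so 1 was added.

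Ratios were computed without a pseudocount and counted past 2-fold over genes with RPKM of at least 5, without the adjusted p-value that the study also required (python 3.11.15, pandas 2.3.3, numpy 2.4.6, matplotlib 3.10.9), and the counting was tested on simulated data. No test was possible with 1 value per condition. The genes, classes and rules were chosen with earlier results of these data known. Named were all genes of classes with up to 15, by value or range, else the 5 highest by mean and the 5 most extreme ratios each way of +NO3- to −N and of +NO3- + cPTIO to +NO3- among genes with RPKM of at least 10 in 1 condition and above 0 in both, all arrays, genes at 0 with at least 30 elsewhere, 3 on each side of the minimum, and the genes sharing their loci. Other genes named in the snRNA, rRNA, family and hairpin paragraphs were added after their values were seen. Alternatives were other pseudocounts, minimums, fold limits and scalings, and genes alone at their locus.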

Additional observations from a re-analysis of the deposited data

How the results depend on the processing

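No paired analysis was possible because the pooled values carry no replicate numbers, and for the same reason no library could be left out. The class medians and sums under the alternatives numbered 288, of which 276 moved by less than 1.5-fold, and neither scaling, by the median ratio or the upper quartile, moved any count or ratio by more than that. A minimum of 1 gave 63 genes past 2-fold lower in +NO3- than in −N (36 at the minimum of 5), 82 lower in +NO3- + cPTIO than in −N (54), 70 listed at 0 in +NO3- (43) and 84 in +NO3- + cPTIO (48). With no minimum these were 76, 98, 83 and 102, with 81 at 0 in −N (50), as more low genes enter. A minimum of 10 gave 31 at 0 in +NO3- + cPTIO. A limit of 1.5-fold gave 129 higher in +NO3- than in −N (82), 140 lower in +NO3- + cPTIO than in +NO3- (92) and 86 lower than in −N (54). A limit of 4-fold gave 47 higher in +NO3- than in −N, 38 higher (59) and 46 lower in +NO3- + cPTIO than in +NO3-, and 46 higher than in −N (76).

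Keeping genes alone at their locus, which are fewer, gave 16 lower in +NO3- than in −N, 32 higher in +NO3- + cPTIO than in +NO3-, 45 higher and 30 lower in +NO3- + cPTIO than in −N, and zeros of 28, 21 and 28 in −N, +NO3- and +NO3- + cPTIO. The median log2 ratio of microRNA precursors for +NO3- against −N, −0.19 over the 8 genes above 0 in both, was 2.22 with a pseudocount of 1, 2.91 with 0.1 and 2.94 with a minimum of 10. That for +NO3- + cPTIO against +NO3-, −0.84, was −0.045 with a minimum of 1 or none, and that for +NO3- + cPTIO against −N, 0.19, was 1.09 with a minimum of 10. Only mir-160 is alone at its locus, so its log2 ratios of 2.94, 0.17 and 3.11 stand for both the median and the sum there. Sums per hairpin, family, class and array were chosen after seeing the data.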
